A study of Mus musculus with 32 samples.

Results

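Livers of mice fed a methionine- and choline-deficient (MCD) diet were compared with livers of mice fed chow (C), both taken at the time of partial hepatectomy (PH) and neither treated with Fc-GLP-1. The 8 samples were chosen by their labels alone (diet, no drug, no mark of the later time point) out of 32 samples in 8 groups, with 4 mice in C and 4 in MCD. All mice were male C57/BL6, 8 weeks old when the diets began, and received their diet for 3 weeks with saline as the vehicle in both groups. The design states that each array carries RNA from a separate liver. The remaining groups received Fc-GLP-1 on either diet for the last 2 of these weeks, or were examined 2 weeks after removal of 70% of the liver. Fc-GLP-1 is the name in one label field, while other fields describe the same drug as activating both the glucagon receptor and the GLP-1 receptor. The MCD diet lacks both nutrients at once, and mice fed it lose weight, so weight loss and lack of methionine or choline cannot be told apart here.

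The liver needs methionine to make S-adenosylmethionine, the methyl donor of the cell, and needs choline or methylation of phosphatidylethanolamine to make the phosphatidylcholine that coats secreted lipoproteins. When both nutrients are missing, triglyceride stays in hepatocytes and inflammation follows, which is why the diet is used to model steatohepatitis. Male and female mouse livers also differ in many cytochrome P450, sulfotransferase and secreted protein genes, a difference set by the pattern of pituitary growth hormone release acting through STAT5b.

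The labelled tissue was checked against its defining markers. Albumin (Alb), transthyretin (Ttr), tyrosine aminotransferase (Tat), carbamoyl phosphate synthetase (Cps1) and the hepatocyte nuclear factor Hnf4a were well above background on all 8 arrays. Their differences did not pass the test: Alb (-0.39, adjusted p = 0.285), Ttr (-0.68, adjusted p = 0.191), Tat (0.42, adjusted p = 0.284), Cps1 (-0.73, adjusted p = 0.163) and Hnf4a (-0.37, adjusted p = 0.450). All differences are MCD minus C on a log2 scale relative to the 75th percentile of each array's signal, with the adjusted p of limma over 21071 genes and a threshold of 0.05, so that 1 unit is a doubling. The summed scaled signal of the 10 hepatocyte genes was nevertheless lower in MCD, at 5140 to 6814 in C and 3846 to 4378 in MCD, with apolipoprotein A-I (Apoa1) the largest fall (-1.13 ± 0.22, adjusted p = 0.000357). The size of this fall depends on the scaling. The median difference of the 10 genes was -0.42, but -0.06 with each array centred on its median and -0.10 under normexp background correction with quantile normalization. In RNA from whole tissue, fewer cells of a type and less RNA per cell cannot be told apart.

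The arrays carried 47.2% to 69.1% of probes well above background in C and 52.5% to 57.9% in MCD. The 75th percentile of signal was 209 to 395 in C and 442 to 564 in MCD, ranges that do not overlap and that the scaling removes. Correlations between arrays were 0.960 to 0.981 within C, 0.98 to 0.985 within MCD and 0.929 to 0.951 between the groups. All 8 arrays were on 1 slide, with C in one column and MCD in the other, so slide column and diet cannot be told apart. C replicate 2 had the largest share of detected probes and C replicate 1 correlated least with its group.

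Between the diets 5574 of 21071 genes differed, 26.5%, of which 2306 (10.9%) were higher and 3268 (15.5%) lower in MCD. The median difference over all genes was -0.13. In 28.4% of genes the 4 MCD arrays and the 4 C arrays did not overlap. Of the called genes, 826 changed by at least 2 log2 units, 499 of them higher and 327 lower. Without both C replicates 1 and 2, a pair left out after seeing the data, 3372 genes were called. The share of calls that were higher was 41.4%, but centring each array on its median instead made it 76.9% and moved the median of all genes from -0.13 to 0.24. The balance of rises and falls therefore depends on the scaling, and only list medians far from these values are described by direction. The gene lists below were compared with these shares, as drawn in the plot of called members by list. The lists were chosen with earlier results of these data known, so the comparison describes them and is not an independent test.

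**Figure D1:**
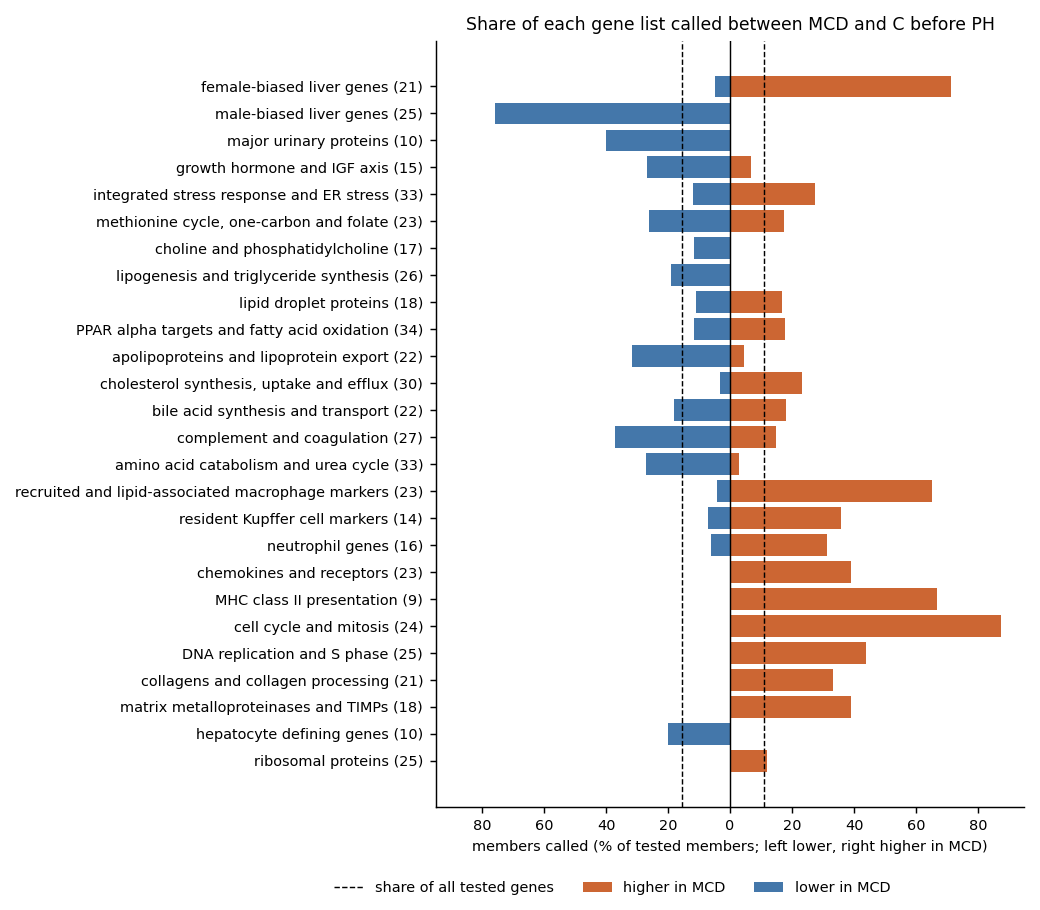
For 26 gene lists, bars show the percentage of tested members called lower (left, blue) or higher (right, orange) in MCD than in C before PH, with the number of tested members in parentheses and dashed lines at the shares of all 21071 genes, 15.5% lower and 10.9% higher. Mitotic genes and female-biased genes have the longest bars to the right and male-biased genes the longest to the left.

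The largest changes of the MCD livers were in genes that differ between the sexes. Among 21 tested genes that are higher in female than in male mouse liver, 15 were called higher (10.9% of all genes were) and 1 lower (15.5%) in these male mice, with a median difference of 2.32 against -0.13 over all genes. The array held 25 genes of this list. A dim gene was tested only where all 4 arrays of some group showed it well above background, so the count leans towards genes high in some group. Among 25 male-biased genes 19 were called lower and none higher, with a median of -2.37. The female-biased cytochrome P450 genes Cyp3a44, Cyp2b13 and Cyp2b9 went from background or near it to clear signal, and the male-biased P450 Cyp4a12a and the fatty acid elongase Elovl3 fell by more than 5 log2 units. Both counts held within 1.5 times when any 1 array was left out. The single call in the other direction, Cyp2c39 (-1.34 ± 0.50, adjusted p = 0.0454), was lost without any array other than C replicate 4 (adjusted p = 0.0542 to 0.148).

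Cyp3a44 was not well above background on any C array (mean levels of -5.42 and 4.70 in C and MCD) and was at least 756-fold higher in MCD. Cyp2b13 (means of -5.74 and 1.36) was at least 75.1-fold higher. Such bounds set the MCD mean against the dimmest detected signal of the C arrays. Cyp2b9 was at -2.11, -2.40, -6.41 and -4.25 in C and 2.43, 1.71, 1.88 and 1.42 in MCD, a difference of 5.65 ± 0.78, adjusted p = 6.26e-06. Every MCD array lay above every C array, as it did for 11.3% of all genes. The steroid sulfotransferase-like gene Sult2a2 and the organic anion transporter genes Slc22a27 and Slc22a26 followed. Sult2a2 and Slc22a27 were not well above background on any C array and were at least 10.8-fold and 40.2-fold higher (means of -5.92 and -1.44, and -5.54 and 0.51). Slc22a26 rose by 4.15 ± 0.61. Among the other female-biased genes, the peroxisomal transporter Abcd2 rose by 2.32 ± 0.52, the magnesium transporter-like gene Nipal1 by 3.72 ± 0.61, and Cyp2a4, a testosterone hydroxylase, by 1.47 ± 0.29. The female-specific transcriptional repressor Cux2 rose by 1.82 ± 0.47, adjusted p = 0.00514, with MCD replicate 2 at -4.04 inside the range of C. Cyp3a16 (-0.18 ± 0.50, adjusted p = 0.822) and Cyp17a1 (0.48, adjusted p = 0.314) did not pass the test.

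Estrogen sulfotransferase (Sult1e1), which inactivates estrogens by sulfation, was well above background on 3 of the 4 C arrays. Its levels were -5.82, -3.34, -3.48 and -3.37 in C and 4.30, 5.23, 5.0 and 5.85 in MCD, a 549-fold difference (9.10 ± 0.94, adjusted p = 1.04e-07). No C array came near any MCD array. Cyp2a22, another P450 gene, rose by 6.0 ± 0.52, adjusted p = 5.53e-09. Genes of the Cyp2a, Cyp2b, Cyp3a and Sult2a families are near-identical in sequence, and a probe may read more than 1 of them.

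Cyp4a12a, which hydroxylates fatty acids in male liver, was at 6.55, 6.23, 6.90 and 6.46 in C and -0.06, 0.34, 1.04 and 0.57 in MCD, a 66.9-fold fall (-6.06 ± 0.83, adjusted p = 5.67e-06). Elovl3, the elongase of very long chain fatty acids, was at 4.78, 4.79, 5.50 and 5.34 in C and -2.32, 0.05, 0.12 and -1.47 in MCD (-6.0 ± 1.15, adjusted p = 0.000376). In both genes the groups were separated by more than 4 log2 units. Hsd3b5, a male-specific steroid dehydrogenase, fell by 5.0, the oxysterol hydroxylase Cyp7b1 by 2.77, Cyp2d9 by 2.46, the terminal complement component C6 by 2.93 and glutathione transferase Gstp1 by 2.09 (adjusted p from 4.28e-07 to 0.00269). The male-biased pseudogene Serpina4-ps1 was at 7.71, 6.24, 8.20 and 8.19 in C and -5.52, 0.68, -2.42 and -4.02 in MCD (-10.40 ± 1.35, adjusted p = 2.95e-06). The transporter Slco1a1 was at 3.95, 3.77, 4.27 and 4.16 in C and 0.04, 0.57, 0.71 and 0.38 in MCD (-3.61 ± 1.18, adjusted p = 0.0240). Its call was lost without MCD replicate 1 (adjusted p = 0.0533). Bcl6, the male-biased repressor of female genes, was also called lower (-2.05 ± 0.67, adjusted p = 0.0244), a call lost without C replicate 2, MCD replicate 1 or MCD replicate 2 (adjusted p = 0.0543 to 0.123).

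The promoters of the male-biased genes that fell were searched for the STAT5 element TTCNNNGAA on both strands, in the 250 bases before each start of the RefSeq table (build GRCm38.p6). It was present in 3 of 16 windows and 2 of the 13 genes in the table (19 fell), Keg1 and Bcl6, against 7.02% of 32851 promoters. Of the other motifs searched, the antioxidant response element TGANNNNGC was in 8 of the 16 windows, against 35.2% of promoters, and neither the ATF4 element TGATGNAAT nor the HNF4A core CAAAGTCCA was found in them. One Bcl6 window held 3 STAT5 elements and another held 1. The Keg1 window, with 2 STAT5 elements in capitals, is shown because Keg1 was called with any 1 array left out, which Bcl6 was not. Keg1, an N-acyltransferase-like gene, was at 3.83, 3.81, 4.96 and 4.62 in C and 0.62, 0.93, 0.23 and 0.73 in MCD (-3.68 ± 0.58, adjusted p = 3.68e-05). A match of letters describes the sequence and does not show that a factor binds there.
Keg1, chr19:12695540-12695789, plus strand: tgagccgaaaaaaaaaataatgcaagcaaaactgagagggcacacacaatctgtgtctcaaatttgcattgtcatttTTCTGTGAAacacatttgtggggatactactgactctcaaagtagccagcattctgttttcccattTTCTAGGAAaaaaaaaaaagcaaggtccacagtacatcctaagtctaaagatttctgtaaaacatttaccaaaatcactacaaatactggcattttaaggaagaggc

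The major urinary proteins are abundant, male-biased pheromone carriers made by hepatocytes. Of 10 tested genes, 4 were called lower and none higher, with a median of -1.57. Mup21 was at 8.13, 8.63, 8.57 and 8.39 in C and 4.43, 4.81, 5.82 and 5.25 in MCD (-3.35 ± 0.86, adjusted p = 0.00493), with no overlap. Mup3, Mup5 and Mup6 fell as well, by 2.36, 2.57 and 4.07, while Mup20, the pheromone darcin, differed by -0.43 ± 0.39 (adjusted p = 0.440) and by -1.51 on its other probe. These genes are so alike that their probes may cross-hybridise.

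Of the growth hormone axis, 4 of 15 genes were lower and 1 higher. The lower calls became 2 under normexp correction or with the authors' values, which left none higher, and 1 with median centring. Stat5b, the transcription factor that carries the growth hormone signal, was at 3.57, 3.66, 3.68 and 3.51 in C and 2.85, 2.49, 2.86 and 2.58 in MCD (-0.91 ± 0.20, adjusted p = 0.00163). Insulin-like growth factor 1 (Igf1) was at 6.22, 6.23, 6.77 and 6.97 in C and 5.21, 5.49, 5.86 and 5.76 in MCD (-0.97 ± 0.24, adjusted p = 0.00331). Igfals, which holds IGF1 in the circulation, fell by 1.44. On the probes used, the groups of Stat5b and Igf1 did not overlap. The other Stat5b probe differed by -0.34, and the 5 Igf1 probes ranged from -1.83 to -0.03. The growth hormone receptor Ghr was called lower (-1.18 ± 0.41, adjusted p = 0.0322), a call lost without any array other than C replicate 1, MCD replicate 3 and MCD replicate 4 (adjusted p = 0.0622 to 0.0963). The prolactin receptor Prlr was the gene called higher (1.05 ± 0.32, adjusted p = 0.0149), lost without C replicate 1 (adjusted p = 0.0570). Socs2, a STAT5 target that dampens the receptor, differed by -0.24 ± 0.52 (adjusted p = 0.764), and its 4 probes ranged from -0.98 to 0.16. The estrogen receptor Esr1 rose by 1.18 (adjusted p = 0.000968).

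Several of the largest rises were in genes of the integrated stress response, the programme in which ATF4 raises amino acid synthesis and transport when amino acids are short. Asparagine synthetase (Asns), phosphoserine aminotransferase (Psat1), the pseudokinase Trib3, the hormone Fgf21 and the stress factors Nupr1, Atf3 and Ddit3 all rose. Of 33 tested genes of the list, which also holds genes of endoplasmic reticulum stress, 9 were higher and 4 lower. Of all genes 10.9% were higher and 15.5% lower. The list's median of 0.13 lay near the -0.13 of all genes, so the list as a whole is not described by direction. Among genes of the endoplasmic reticulum, the main chaperone Hspa5 differed by 0.08 ± 0.32 (adjusted p = 0.874), while Sdf2l1 fell by 2.42 and Derl3, which helps to remove misfolded proteins, fell by 2.24.

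Nupr1 was at 0.04, 0.19, -0.36 and -0.44 in C and 5.72, 7.15, 4.86 and 5.83 in MCD, 65.4-fold higher (6.03 ± 0.63, adjusted p = 1.53e-07). Asns was at -1.17, -0.12, 0.03 and 0.39 in C and 4.78, 4.74, 5.32 and 5.45 in MCD, 39.1-fold higher (5.29 ± 0.44, adjusted p = 2.38e-09). Psat1, of serine synthesis, was at -4.89, -3.07, -3.25 and -3.05 in C and 2.14, 2.85, 2.51 and 1.89 in MCD, 60.3-fold higher (5.91 ± 0.54, adjusted p = 1.47e-08, but 4.11 on its other probe). In each of the 3 the lowest MCD array was more than 4 log2 units above the highest C array. Fgf21, a hepatic hormone of fasting and protein restriction, was at 0.20, -0.12, -0.11 and -0.31 in C and 5.40, 4.51, 4.80 and 3.17 in MCD, 23.5-fold higher (4.56 ± 0.54, adjusted p = 8.4e-07). Trib3 rose by 4.19 ± 0.54 and Ddit3, the CHOP transcription factor, by 2.29 ± 0.38. Atf3 rose by 3.75 ± 0.89 with C replicates 3 and 4 well above the other C arrays (-2.27, -2.55, 1.56 and 0.81). Phgdh, the first enzyme of serine synthesis, rose by 1.85 ± 0.53, adjusted p = 0.0109, and its 3 probes ranged from 0.98 to 1.85. The mRNA of ATF4 itself (Atf4) differed by 0.13 ± 0.30 (adjusted p = 0.790) on the probe used and by 0.99 on its other probe, and it was called higher under normexp correction (0.82, adjusted p = 0.0343). The ATF4 targets Chac1 (0.19, adjusted p = 0.818) and Gdf15 (0.08, adjusted p = 0.926) did not pass the test either. The chaperones Hsp90b1 (-1.20) and Calr (-0.77) were called lower. The first call was lost without any array other than C replicate 1, MCD replicate 1 and MCD replicate 2 (adjusted p = 0.0644 to 0.106). The second was lost without any array other than C replicate 4, MCD replicate 1 and MCD replicate 2 (adjusted p = 0.0532 to 0.113). The count of lower genes was 2 instead of 4 without C replicate 2, C replicate 3, MCD replicate 3 or MCD replicate 4.

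The ATF4 element was found in 2 of 11 promoter windows of the 9 stress genes that rose, those of Nupr1 and Fgf21, against 0.816% of 32851 promoters. The STAT5 element was in 1 of the 11 windows, the antioxidant response element in 5, and the HNF4A core in none. Both windows with an ATF4 element are shown, 5' to 3' in the direction of the gene, with the element in capitals, which read it on the opposite strand.
Nupr1, chr7:126625471-126625720, minus strand: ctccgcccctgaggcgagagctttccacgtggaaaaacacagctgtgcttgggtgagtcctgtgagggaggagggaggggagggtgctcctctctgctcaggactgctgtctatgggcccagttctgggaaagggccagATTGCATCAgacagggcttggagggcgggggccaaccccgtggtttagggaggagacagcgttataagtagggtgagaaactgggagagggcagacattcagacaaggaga
Fgf21, chr7:45615491-45615740, minus strand: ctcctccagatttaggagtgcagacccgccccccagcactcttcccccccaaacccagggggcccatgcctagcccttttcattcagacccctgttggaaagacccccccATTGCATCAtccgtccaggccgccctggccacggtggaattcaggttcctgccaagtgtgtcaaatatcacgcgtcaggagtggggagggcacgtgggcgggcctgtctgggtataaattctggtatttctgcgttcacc

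**Figure D2:**
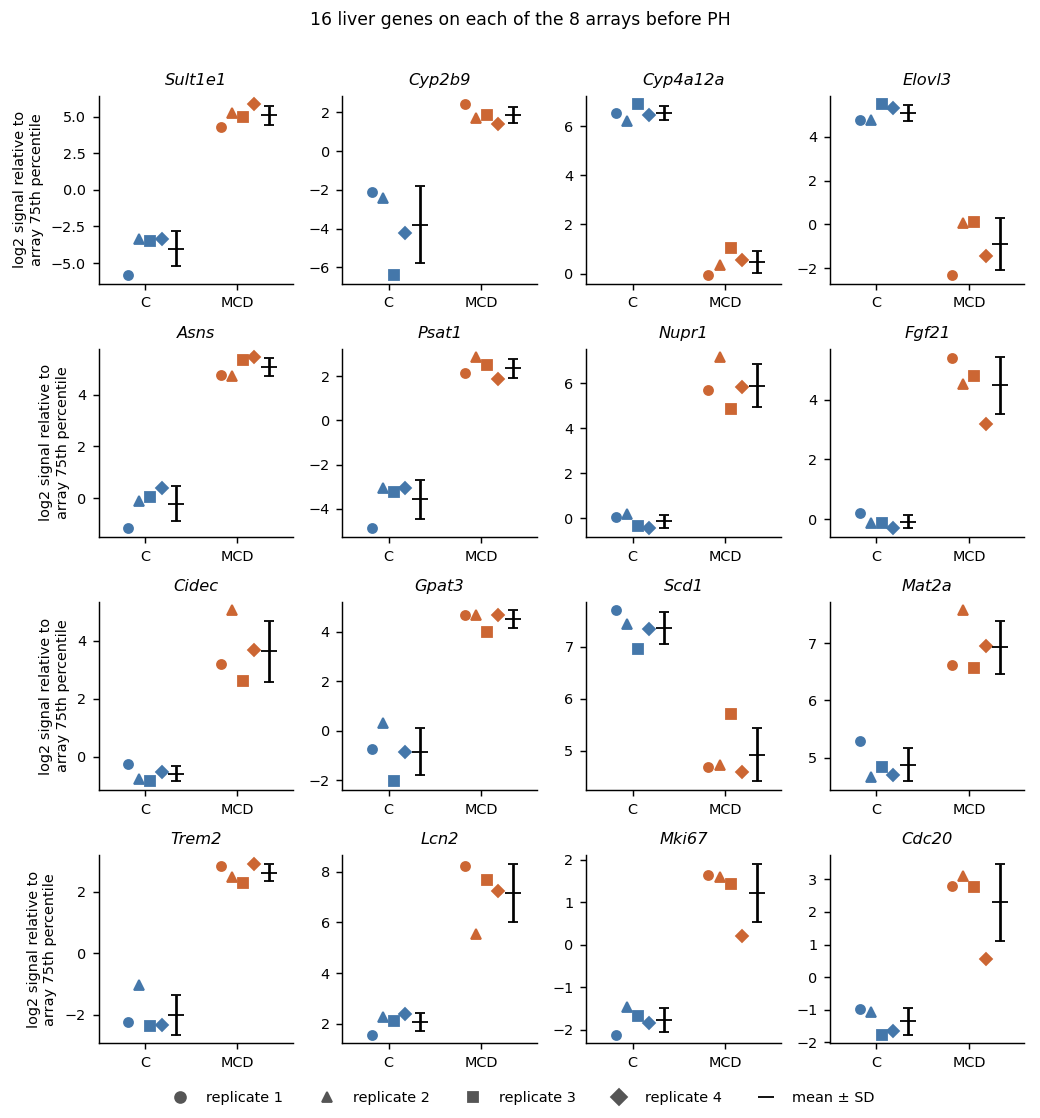
Level of 16 genes on each of the 8 arrays (log2 signal relative to the array's 75th percentile; each panel has its own axis), with C in blue, MCD in orange, a symbol for each replicate number and the mean ± SD in black. In all 16 panels the 4 MCD points lie on one side of the 4 C points. MCD replicate 4 is the lowest MCD point for Cyp2b9, Psat1, Fgf21, Scd1, Mki67 and Cdc20, and MCD replicate 2 for Asns and Lcn2.

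Of 23 genes that handle methionine and one-carbon units, 4 were higher and 6 lower, where 10.9% and 15.5% of all genes were. Median centring made them 7 and 1. Mat2a, the S-adenosylmethionine synthetase that most tissues use and that rises when its product is short, was at 5.29, 4.66, 4.84 and 4.69 in C and 6.62, 7.57, 6.56 and 6.96 in MCD, 4.16-fold higher (2.06 ± 0.32, adjusted p = 2.87e-05). The groups did not overlap. The hepatocyte enzyme Mat1a differed by 0.45 ± 0.39 (adjusted p = 0.408). Mthfd1l, a mitochondrial enzyme of formate production, was at -2.60, -2.67, -2.83 and -2.64 in C and 1.03, 2.02, 0.92 and 1.77 in MCD, 17.4-fold higher (4.12 ± 0.38, adjusted p = 1.77e-08, but 2.84 on its other probe). Its partner Mthfd2 rose by 1.76 ± 0.50. Mtrr, which reactivates methionine synthase, was not well above background on the C arrays and was at least 2.04-fold higher (means of -5.94 and -3.84). Glycine N-methyltransferase (Gnmt), which disposes of surplus S-adenosylmethionine, fell by 1.04 (adjusted p = 0.00346) and mitochondrial serine hydroxymethyltransferase (Shmt2) by 1.28. Cbs, which commits homocysteine to cysteine, was called lower (-0.90 ± 0.26, adjusted p = 0.0106), a call lost without C replicate 1 (adjusted p = 0.0594). The homocysteine methyltransferase Bhmt (0.22, adjusted p = 0.628) and nicotinamide methyltransferase Nnmt (0.49, adjusted p = 0.442) did not pass the test.

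Of 17 genes of choline use 2 were called, both lower, a share no higher than the 15.5% of all genes. The defining enzymes of phosphatidylcholine synthesis, Pemt (-0.01), Chka (-0.30) and Pcyt1a (0.13), and choline dehydrogenase Chdh (0.05) had adjusted p of 0.347 to 0.985. Cholinephosphotransferase Chpt1, the last step of the choline pathway, was at 4.74, 4.11, 4.59 and 4.56 in C and 3.02, 2.01, 2.97 and 2.82 in MCD (-1.79 ± 0.36, adjusted p = 0.000570). The other, the betaine aldehyde dehydrogenase Aldh7a1 (-1.07 ± 0.31, adjusted p = 0.0124), was lost without C replicate 1 (adjusted p = 0.0547). Downstream of cysteine, Csad, which makes taurine, was at 5.32, 5.92, 6.35 and 6.37 in C and 3.65, 3.11, 4.87 and 2.82 in MCD (-2.38 ± 0.37, adjusted p = 3.75e-05). In Chpt1 and Csad the highest MCD array lay below the lowest C array. The other Chpt1 probe differed by -0.42.

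Of 26 genes of fatty acid and triglyceride synthesis, 5 were lower and none higher, Elovl3 of the male-biased genes among them. Of all genes 15.5% were lower. Stearoyl-CoA desaturase (Scd1), which makes monounsaturated fatty acids, was at 7.69, 7.44, 6.96 and 7.34 in C and 4.69, 4.72, 5.70 and 4.59 in MCD, 5.39-fold lower (-2.43 ± 0.40, adjusted p = 6.24e-05). Srebf1, the transcription factor of lipogenesis, was at 2.55, 3.48, 2.54 and 2.77 in C and 1.10, 1.29, 0.86 and 1.33 in MCD (-1.69 ± 0.31, adjusted p = 0.000240). In neither did the groups overlap. The elongase Elovl5 fell by 1.19. Fatty acid synthase Fasn (-0.32 ± 0.44, adjusted p = 0.621), acetyl-CoA carboxylase Acaca (0.32, adjusted p = 0.439), Elovl6 (-0.09, adjusted p = 0.896) and the last enzyme of triglyceride synthesis, Dgat2 (-0.37, adjusted p = 0.374), did not pass the test. The list's median of -0.34 was 0.02 under median centring, 0.12 under normexp correction and 0.10 with the authors' values.

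A pair of enzymes on the way to triglyceride that no list held, chosen after their values were seen, rose. Gpat3, a glycerol-3-phosphate acyltransferase typical of fat tissue, was at -0.75, 0.31, -2.04 and -0.86 in C and 4.68, 4.69, 4.00 and 4.68 in MCD, 40.8-fold higher (5.35 ± 0.38, adjusted p = 9.89e-11). Mogat2, a monoacylglycerol acyltransferase typical of the gut, was at -3.52, -2.06, -2.87 and -1.81 in C and 2.58, 2.82, 3.27 and 2.59 in MCD, 41.7-fold higher (5.38 ± 0.52, adjusted p = 3.66e-08). In both the lowest MCD array was more than 3 log2 units above the highest C array. The lipid droplet protein Cidec, which fuses droplets, was at -0.26, -0.74, -0.83 and -0.50 in C and 3.20, 5.03, 2.60 and 3.67 in MCD, 18.5-fold higher (4.21 ± 0.58, adjusted p = 6.3e-06). The general droplet coat Plin2 (-0.00 ± 0.26, adjusted p = 0.998), Plin4 (1.08, adjusted p = 0.136) and Cidea (0.14, adjusted p = 0.917) did not pass the test. Of 18 lipid droplet genes 3 were higher and 2 lower, where 10.9% and 15.5% of all genes were. The 3 became 1 without C replicate 3, C replicate 4 or MCD replicate 4.

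Of 22 apolipoprotein and lipoprotein genes 7 were lower and 1 higher, where 15.5% and 10.9% of all genes were. The higher one, apolipoprotein A-IV (Apoa4), was at 2.45, 1.27, 2.40 and 2.37 in C and 5.70, 6.04, 5.28 and 5.27 in MCD, 10.9-fold (3.45 ± 0.36, adjusted p = 1.68e-07). The microsomal transfer protein Mttp, which loads triglyceride onto apolipoprotein B, was at 3.58, 3.68, 3.47 and 3.63 in C and 2.80, 2.60, 2.98 and 2.82 in MCD (-0.79 ± 0.24, adjusted p = 0.0155). Apob itself (-0.13, adjusted p = 0.831) and Apoc3 (-0.51, adjusted p = 0.136) did not pass. Phospholipid transfer protein Pltp fell by 2.06 and hepatic lipase Lipc by 1.55. The 7 lower calls became 4 without both C replicates 1 and 2, 4 under normexp correction, 3 with median centring and 2 with the authors' values.

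Of 30 cholesterol genes, 7 were higher and 1 lower, where 10.9% and 15.5% of all genes were. The 7 became 3 without C replicate 1, 4 without C replicate 2, MCD replicate 1 or MCD replicate 3, and 0 without both C replicates 1 and 2, and the 1 lower became 2 without either of them. The sterol exporter Abcg1, abundant in macrophages, rose by 1.65 ± 0.41, adjusted p = 0.00377. It was called with any 1 array left out. Squalene epoxidase Sqle was called (1.20 ± 0.41, adjusted p = 0.0309), but lost without any array other than C replicate 3 and MCD replicate 3 (adjusted p = 0.0547 to 0.169). The sterol exporter Abcg5 (0.13, adjusted p = 0.852) did not pass the test. Tm7sf2, a sterol reductase, fell by 1.49.

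PPAR alpha is the fatty acid receptor that turns on fat oxidation in fasting liver, and its targets were called in both directions. Of 34 genes, 6 were higher and 4 lower with a median of 0.01, where 10.9% and 15.5% of all genes were. Median centring made them 10 and 2. The fatty acid transporter Cd36 was at 0.07, 0.03, -0.35 and 0.04 in C and 2.04, 1.64, 2.57 and 2.41 in MCD (2.21 ± 0.40, adjusted p = 0.000188). The acyl-CoA thioesterases Acot2, Acot3 and Acot4 rose by 3.07 ± 0.58, 3.04 ± 0.70 and 1.81 ± 0.33. Their neighbour Acot1 was at 4.73, 4.28, 3.92 and 4.23 in C and 0.55, 1.10, 2.11 and 1.51 in MCD (-2.97 ± 0.55, adjusted p = 0.000238). These genes are close in sequence and a probe may read more than 1 of them. The peroxisomal thiolase Acaa1b was at 8.01, 7.61, 8.05 and 7.97 in C and 4.72, 5.33, 5.77 and 6.04 in MCD (-2.44 ± 0.37, adjusted p = 2.24e-05). The fatty acid transporter Slc27a2 fell by 1.26. In Acot1, Acaa1b and Acot3 the groups did not overlap. Ppara itself (0.33) and carnitine palmitoyltransferase Cpt1a (0.48) had adjusted p of 0.470 and 0.102. The call of Cyp4a14, a fatty acid hydroxylase (2.08 ± 0.79, adjusted p = 0.0497), was lost without any array other than C replicate 1 and C replicate 2 (adjusted p = 0.0620 to 0.158).

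**Figure D3:**
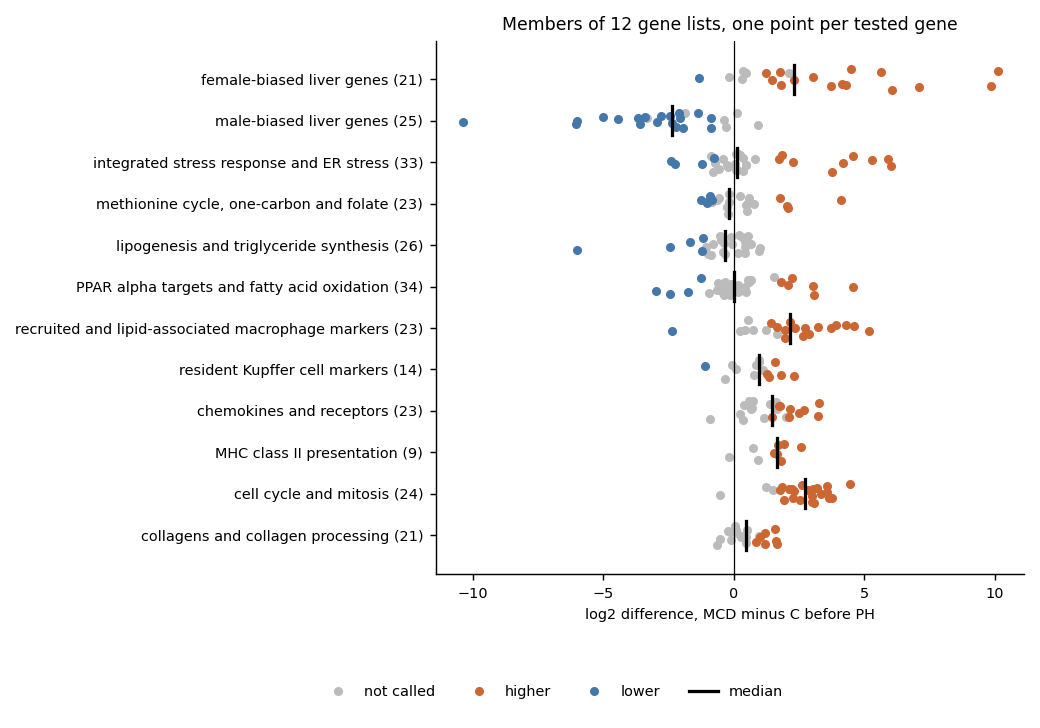
Each point is a tested gene of 1 of 12 lists, placed by its log2 difference (MCD minus C before PH), in orange where called higher, blue where called lower and grey where not called, with the list's median as a black bar. The female-biased and male-biased lists lie on opposite sides of 0, the stress response and PPAR alpha lists spread to both sides around a median near 0, and 23 of the 24 mitotic genes lie to the right.

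Of 22 bile acid genes 4 were called higher and 4 lower, where 10.9% and 15.5% of all genes were. Without both C replicates 1 and 2 the 4 higher became 2. Abcc4, which exports bile acids back to blood, was at -2.05, -2.28, -1.40 and -1.69 in C and 1.14, 0.73, 1.62 and 1.20 in MCD (3.03 ± 0.41, adjusted p = 5.2e-06). Slc51b, a subunit of the OST exporter on the same side of the cell, was at -3.45, -2.04, -1.34 and -2.71 in C and 0.39, -0.02, 0.06 and 0.20 in MCD (2.54 ± 0.64, adjusted p = 0.00450). In both the groups did not overlap. Cyp39a1, an oxysterol hydroxylase, rose by 2.22 ± 0.30. Sterol 27-hydroxylase Cyp27a1 was at 5.08, 2.98, 4.12 and 4.10 in C and 2.29, 1.65, 1.79 and 1.83 in MCD (-2.18 ± 0.38, adjusted p = 0.000121). The repressor Nr0b2 (SHP) fell by 1.76 and the bile acid ligase Slc27a5 by 1.51. The rate-limiting enzyme Cyp7a1 (0.70, adjusted p = 0.409), Cyp8b1 (-2.09, adjusted p = 0.128, with all MCD arrays below all C arrays), and the canalicular pump Abcb11 (0.04, adjusted p = 0.951) did not pass the test. The uptake carrier Slc10a1 depended on the probe: it did not pass on the probe used (-0.28, adjusted p = 0.378), its other probe differed by -1.96, and the mean of both was called lower (-1.12, adjusted p = 0.00262).

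Among drug-metabolising P450 genes and their regulators 5 of 26 were higher and 8 lower. Cyp2b10, the classic target of the xenobiotic receptor CAR, rose by 3.47 ± 0.66, adjusted p = 0.000366. Cyp2c38 fell by 2.76 (adjusted p = 1.16e-05) and Cyp2c37, Cyp2c50, Cyp2j5 and Cyp2c29 by 1.72, 1.62, 1.69 and 1.43, each with any 1 array left out. The other Cyp2c38 probe differed by -0.32. The 5 became 3 without C replicate 3 and 2 without C replicate 4. CAR itself (Nr1i3, -0.59, adjusted p = 0.228), Cyp3a11 (-0.77, adjusted p = 0.0783) and Cyp1a2 (-0.94, adjusted p = 0.228) did not pass. Cyp2e1, which oxidises ethanol and fatty acids, was called lower (-0.85 ± 0.31, adjusted p = 0.0437), lost without any array other than MCD replicate 2 (adjusted p = 0.0548 to 0.125). Its sign turned with the authors' normalized values.

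Macrophage genes were higher in MCD livers. Of 23 markers of recruited and lipid-associated macrophages, 15 were called higher and 1 lower, with a median of 2.16. In 17 of the 23 every MCD array lay above every C array, against 11.3% of all genes. Trem2, a lipid receptor of these cells, was at -2.24, -1.03, -2.37 and -2.35 in C and 2.82, 2.48, 2.28 and 2.89 in MCD, 24.5-fold higher (4.62 ± 0.75, adjusted p = 5.81e-05). Clec7a, the beta-glucan receptor dectin-1, was at -1.03, -0.57, -1.68 and -0.92 in C and 3.06, 2.24, 2.27 and 3.98 in MCD (3.94 ± 0.63, adjusted p = 5.32e-05). Galectin-3 (Lgals3) was at 0.45, 1.07, 0.10 and 0.53 in C and 3.39, 3.57, 3.43 and 4.64 in MCD (3.22 ± 0.64, adjusted p = 0.000535). In each, no MCD array reached down to C. Gpnmb, a lysosomal glycoprotein, was not detected above background in C and was at least 18.7-fold higher (means of -5.83 and -0.64). The macrophage elastase Mmp12 rose by 3.72 ± 0.73, the integrin Itgax by 2.90 ± 0.60, the lysosomal proteins Cd63 and Cd68 by 2.72 ± 0.50 and 1.96 ± 0.48, and lysozyme Lyz2 by 1.96 ± 0.55. The other Cd68 probe differed by 0.99. Osteopontin (Spp1, 0.74 ± 0.74, adjusted p = 0.483), Cd9 (0.23, adjusted p = 0.757), lipoprotein lipase (Lpl, 0.54, adjusted p = 0.291) and the chemokine receptor Ccr2 (1.65, adjusted p = 0.0593) did not pass the test. The fatty acid binding protein Fabp5, which hepatocytes also make, fell by 2.36 (adjusted p = 4.76e-05). The list's summed level was 95.8 to 179 in C and 191 to 242 in MCD.

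Of 14 markers of resident Kupffer cells 5 were higher and 1 lower, with a median of 0.97. The complement receptor Vsig4 was at 1.47, 2.66, 2.21 and 2.37 in C and 4.93, 3.21, 5.03 and 4.75 in MCD (2.30 ± 0.42, adjusted p = 0.000201). Cd5l, a secreted macrophage protein, was at 4.31, 5.22, 4.42 and 4.60 in C and 7.27, 5.62, 6.45 and 6.52 in MCD (1.82 ± 0.41, adjusted p = 0.00154). The lectin Clec4f, a marker specific to Kupffer cells, was at 3.60, 4.18, 3.02 and 3.37 in C and 5.41, 4.27, 4.88 and 4.76 in MCD (1.29 ± 0.35, adjusted p = 0.00796). MCD replicate 2 was the lowest MCD array for all 3, yet above every C array. These are the 3 of the 14 markers in which every MCD array lay above every C array. MCD replicate 2 was the lowest MCD array for 12 of the 14 markers, and without it 8 were called higher, against 3 without MCD replicate 1 or MCD replicate 3. The gene called lower, Id3 (-1.11 ± 0.32, adjusted p = 0.0108), was lost without C replicate 1 (adjusted p = 0.0691). Timd4, a marker of long-lived Kupffer cells (0.98, adjusted p = 0.155), and Marco (1.13, adjusted p = 0.127) did not pass. The summed level was 176 to 231 in C and 203 to 434 in MCD, with MCD replicate 2, the lowest, inside the range of C. The 5 higher calls became 3 under normexp correction or with the authors' values and 8 with median centring.

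Of 23 chemokines and their receptors 9 were higher (10.9% of all genes were) and none lower (1 without C replicate 1), with a median of 1.47. Ccl5, which draws T cells and monocytes, was at 0.52, 1.14, 0.42 and 0.56 in C and 2.21, 1.95, 2.40 and 3.14 in MCD (1.76 ± 0.35, adjusted p = 0.000603). The monocyte attractants Ccl4, Ccl6 and Ccl7 rose by 3.21 ± 0.76, 2.15 ± 0.55 and 3.28 ± 0.87. Ccl3, not above background in C, was at least 3.24-fold higher (means of -5.70 and -3.02). Ccl3 and Ccl4 are near-identical and a probe may read both. The neutrophil attractant Cxcl1 (0.26 ± 0.76, adjusted p = 0.833), the interferon-induced Cxcl9 (0.72, adjusted p = 0.274) and Cxcl10 (1.61, adjusted p = 0.0710) and Cxcl14 (1.16, adjusted p = 0.128) did not pass the test.

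Of 21 genes of the IL-1 family, inflammasome and TNF signalling, 9 were higher and 2 lower. The rises included the adhesion molecule Vcam1 (2.54 ± 0.54, adjusted p = 0.00112), the NF-kappaB inhibitor Tnfaip3 (2.38 ± 0.55, adjusted p = 0.00203), the alarmin Il33 (2.03 ± 0.40, adjusted p = 0.000509) and caspase-1 (Casp1, 1.42 ± 0.35, adjusted p = 0.00385). The cytokines themselves, Il1b (0.81, adjusted p = 0.209) and Tnf (1.65, adjusted p = 0.0545), were not called, nor was the adhesion molecule Icam1 (0.81, adjusted p = 0.284). The call of the IL-1 receptor antagonist Il1rn (1.6 ± 0.58, adjusted p = 0.0417) was lost without any array other than C replicate 2 and MCD replicate 2 (adjusted p = 0.0589 to 0.135). Of the lower genes, the receptor subunit Il1rap fell by 1.77. The call of lymphotoxin Lta (-1.30 ± 0.44, adjusted p = 0.0302) was lost without C replicate 2, C replicate 4, MCD replicate 1 or MCD replicate 2 (adjusted p = 0.0501 to 0.145).

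MHC class II genes, by which macrophages, dendritic cells and B cells present antigen, were called higher in 6 of 9 and lower in none, with a median of 1.65. H2-Ab1 was at 3.50, 4.76, 3.98 and 3.19 in C and 5.73, 5.11, 5.69 and 5.49 in MCD (1.65 ± 0.46, adjusted p = 0.00840). H2-Aa was at 0.51, 0.36, -0.82 and -0.17 in C and 2.21, 1.37, 2.42 and 1.56 in MCD (1.92 ± 0.47, adjusted p = 0.00348). H2-Eb1 rose by 1.52 ± 0.39. Cathepsin S (Ctss), which trims the invariant chain, was at 1.22, 1.83, 1.66 and 1.64 in C and 4.29, 3.34, 4.72 and 4.37 in MCD (2.59 ± 0.51, adjusted p = 0.000522). MCD replicate 2 was again the lowest MCD array in 8 of the 9 genes, yet above all C arrays in the 4 named. The invariant chain Cd74 differed by 0.94 ± 0.45 (adjusted p = 0.126). Of 10 B and plasma cell genes 2 were higher and 2 lower, of which Derl3 above was the one called with any 1 array left out. The antigen receptor chain Cd79a (-1.15 ± 0.35, adjusted p = 0.0150) was lost without C replicate 1 or MCD replicate 2 (adjusted p = 0.0546 to 0.0779). Of the plasma cell genes, Jchain (2.07 ± 0.64, adjusted p = 0.0176) was lost without C replicate 1, C replicate 3 or MCD replicate 3 (adjusted p = 0.0522 to 0.0535). Mzb1 (1.17 ± 0.42, adjusted p = 0.0408) was lost without any array other than C replicate 2 and MCD replicate 2 (adjusted p = 0.0800 to 0.10). The partner chain Cd79b differed by -0.21 ± 0.40 (adjusted p = 0.737).

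Of 16 neutrophil genes 5 were higher and 1 lower, where 10.9% and 15.5% of all genes were. Lipocalin-2 (Lcn2), which neutrophils and stressed hepatocytes both make, was at 1.58, 2.26, 2.11 and 2.40 in C and 8.22, 5.55, 7.66 and 7.24 in MCD, 33.8-fold higher (5.08 ± 0.86, adjusted p = 9.29e-05). The calprotectin subunit S100a8 was at -3.29, -2.24, -3.17 and -2.38 in C and 0.63, -0.84, -0.01 and 1.35 in MCD (3.06 ± 0.67, adjusted p = 0.00141). Its partner S100a9 was at 0.85, 0.76, 0.91 and 0.54 in C and 3.83, 1.66, 3.68 and 4.18 in MCD (2.57 ± 0.61, adjusted p = 0.00258). All 3 were lowest in MCD replicate 2 among the MCD arrays, and this array was the lowest for 13 of the 16 genes. Ly6g, the defining surface marker of mouse neutrophils, differed by -0.31 ± 0.29 (adjusted p = 0.447). The integrin Itgam, shared with macrophages, fell by 1.56 (adjusted p = 0.00485), although another of its 3 probes differed by 0.49. The call of myeloperoxidase Mpo (2.93 ± 1.09, adjusted p = 0.0460) was lost without any array other than MCD replicate 2 (adjusted p = 0.0541 to 0.125).

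Of 17 T and NK cell genes 4 were higher and 2 lower, where 10.9% and 15.5% of all genes were. Cd4 was at 6.68, 7.16, 6.10 and 5.99 in C and 3.95, 3.88, 3.87 and 3.60 in MCD (-2.66 ± 0.32, adjusted p = 1.34e-06). Cd3e fell by 1.12 and Cd3d rose by 0.98 ± 0.27. The cytotoxic genes Gzma (0.77), Gzmb (0.67) and Prf1 (-0.13) had adjusted p of 0.185, 0.408 and 0.767. Cd3d and Cd3e are subunits of 1 receptor complex and moved in opposite directions on these probes. The summed levels were 66.1 to 112 in C and 130.3 to 381 in MCD for neutrophil genes. They were 72.1 to 153 in C and 20.7 to 24.2 in MCD for T and NK genes. The T and NK sum is mostly the signal of Cd4 and does not describe the list. Which cells gave the Cd4 signal was not tested. The list's median difference was 0.64, with 13 of the 17 genes above 0. How far cell numbers set the macrophage, chemokine and class II results was not tested.

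**Figure D4:**
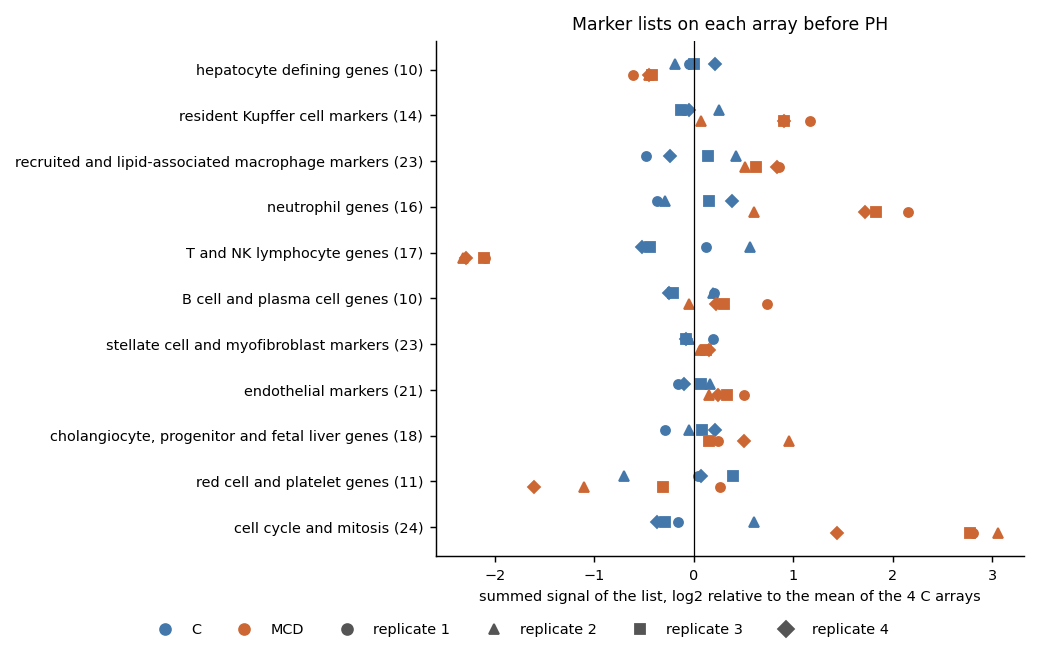
Summed scaled signal of each marker list on each of the 8 arrays, as log2 of its ratio to the mean of the 4 C arrays, with C in blue, MCD in orange and a symbol per replicate number; a sum follows its brightest probes. The mitotic sum is above C on all 4 MCD arrays and least so on replicate 4, the neutrophil and Kupffer sums are lowest on MCD replicate 2 among the MCD arrays, the T and NK sum lies below C together with Cd4, and the stellate and endothelial sums stay within 1 log2 unit of C.

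Most genes of mitosis rose, in livers that had not yet been operated on. Of 29 listed genes 24 were tested, of which 21 were called higher and none lower, with a median of 2.74. A dim gene was tested only where all 4 arrays of some group showed it well above background. Counts over the tested genes therefore lean towards genes that are high in some group. In 20 of the 24 every MCD array lay above every C array. The proliferation antigen Mki67 was at -2.12, -1.46, -1.67 and -1.84 in C and 1.64, 1.6, 1.44 and 0.20 in MCD, 7.96-fold higher (2.99 ± 0.57, adjusted p = 0.000357). Cdc20, an activator of the anaphase-promoting complex, was at -0.97, -1.07, -1.77 and -1.64 in C and 2.80, 3.11, 2.75 and 0.55 in MCD, 12.7-fold higher (3.66 ± 0.71, adjusted p = 0.000432). Cyclin B1 (Ccnb1) was at -3.77, -3.33, -3.64 and -4.66 in C and 0.01, -0.16, -0.53 and -1.91 in MCD (3.20 ± 0.73, adjusted p = 0.00183). In these 3, replicate 4 was the lowest MCD array, as it was in 20 of the 24 genes, and it still lay above C. The spindle protein Prc1 and the kinase Plk1 rose by 3.56 ± 0.68 and 2.99 ± 0.62. Topoisomerase Top2a, the mitotic kinase Cdk1 and the kinase Pbk were not above background on any C array and were at least 4.44-fold, 3.60-fold and 8.66-fold higher (means of -5.99 and -2.63, -5.55 and -3.01, and -6.21 and -1.75). The kinetochore gene Ndc80 differed by -0.53 ± 0.64 (adjusted p = 0.574).

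Of 25 DNA replication genes 11 were higher and none lower, with a median of 0.99. The helicase subunits Mcm2, Mcm5 and Mcm6 rose by 2.18 ± 0.39, 1.98 ± 0.43 and 2.26 ± 0.40. Mcm6 was at 0.74, 0.34, 2.16 and 2.13 in C and 3.38, 3.78, 3.78 and 3.48 in MCD. Cyclin E1 (Ccne1), which starts S phase, was at 0.10, -0.20, -1.45 and -0.82 in C and 1.34, 1.78, 1.87 and 1.73 in MCD (2.27 ± 0.32, adjusted p = 7.82e-06). Cyclin D1 (Ccnd1), which drives cells out of rest, was at 1.70, 2.63, 2.89 and 2.24 in C and 5.40, 5.97, 4.83 and 5.98 in MCD, 9.05-fold higher (3.18 ± 0.42, adjusted p = 4.25e-06). In none of these 3 did the groups overlap. The sliding clamp Pcna was called (1.02 ± 0.37, adjusted p = 0.0385) but lost without any array other than C replicate 3 and MCD replicate 1 (adjusted p = 0.0526 to 0.122). Ribonucleotide reductase Rrm2 did not pass (0.99 ± 0.50, adjusted p = 0.140). Among genes that halt the cycle, Gadd45a rose by 2.45 ± 0.55. The CDK inhibitor Cdkn1a (1.53 ± 0.58, adjusted p = 0.0523, all MCD arrays above all C arrays) and Mdm2 (0.44, adjusted p = 0.142) were not called. The marker lists of non-hepatocyte cells that were higher on the same arrays are given above. Which cells carried the mitotic mRNAs was not tested.

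Among matrix genes, Timp1, the inhibitor of matrix metalloproteinases, was at -5.40, -3.91, -4.33 and -3.73 in C and -1.31, -0.86, -0.85 and 0.04 in MCD, 12.1-fold higher (3.60 ± 0.83, adjusted p = 0.00222). Of 21 collagen genes 7 were called higher and none lower, but the count was 4 or fewer without any 1 of the 8 arrays, and 1 without MCD replicate 2. Col1a1 was at -1.44, -0.29, -0.12 and -1.12 in C and 0.65, 0.88, 1.17 and 0.89 in MCD (1.64 ± 0.62, adjusted p = 0.0485). Col1a2 was at 1.79, 1.90, 1.91 and 2.36 in C and 3.1, 3.29, 3.07 and 3.27 in MCD (1.19 ± 0.41, adjusted p = 0.0334). Col3a1 was at 1.29, 1.73, 1.61 and 1.76 in C and 2.32, 2.57, 2.71 and 2.66 in MCD (0.97 ± 0.45, adjusted p = 0.113). In all 3 every MCD array lay above every C array. The Col1a1 call was lost without any array other than C replicate 3 (adjusted p = 0.0515 to 0.133). The Col1a2 call was lost without any array other than C replicate 4 (adjusted p = 0.0526 to 0.0764). Col4a1, of basement membrane, was called (0.85 ± 0.31, adjusted p = 0.0430) but lost without any array other than C replicate 3 and MCD replicate 3 (adjusted p = 0.0640 to 0.130). The receptor Pdgfra, lumican (Lum) and vimentin (Vim), all of fibroblastic cells, rose by 1.90 ± 0.26, 1.64 ± 0.35 and 1.24 ± 0.36, and connective tissue growth factor (Ccn2) by 1.90 ± 0.42. Lrat, which stores vitamin A in stellate cells, was at -0.90, -0.91, -0.82 and 0.55 in C and 1.46, 0.57, 2.09 and 1.30 in MCD (1.88 ± 0.31, adjusted p = 8.03e-05). The myofibroblast markers Acta2 (-0.79 ± 0.54, adjusted p = 0.283) and Des (-0.26, adjusted p = 0.482) and the cytokine Tgfb1 (-0.27, adjusted p = 0.623) did not pass the test. Nor did Pdgfrb (0.21), Reln (0.34) and Fap (0.57), at adjusted p of 0.693, 0.497 and 0.414. The summed stellate list was 194 to 234 in C and 215 to 228 in MCD.

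Among secreted and fetal liver proteins, alpha-fetoprotein (Afp), which hepatocytes make before birth and in regeneration, was at -3.03, -2.14, -1.31 and -1.78 in C and 1.82, 2.46, 2.52 and 2.31 in MCD, 20.2-fold higher (4.34 ± 0.34, adjusted p = 6.35e-10). Serum amyloid P (Apcs) was at 2.11, 2.60, 2.76 and 3.08 in C and 6.31, 5.6, 6.63 and 7.05 in MCD, 13.6-fold higher (3.76 ± 0.34, adjusted p = 1.46e-08). Neither overlapped between groups. The ductular markers Krt19 (-1.45 ± 0.83, adjusted p = 0.198), Krt7 (-0.04, adjusted p = 0.972), Sox9 (-0.02, adjusted p = 0.976) and Epcam (0.42, adjusted p = 0.650) did not pass. The TWEAK receptor Tnfrsf12a rose by 1.89 ± 0.52 and keratin Krt23 by 3.1 ± 0.78. The fetal RNA H19 was called (2.98 ± 0.96, adjusted p = 0.0222) but lost without MCD replicate 1 or MCD replicate 3 (adjusted p = 0.0516 to 0.0630). Its 6 probes ranged from 0.75 to 2.98. The inducible acute phase proteins Saa1 (0.11, adjusted p = 0.916), Saa2 (0.31, adjusted p = 0.781), Saa3 (-0.32, adjusted p = 0.637), the endotoxin carrier Lbp (-1.05, adjusted p = 0.0511) and Orm2 (0.54, adjusted p = 0.302) were not called.

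Of 27 complement and clotting genes 10 were lower and 4 higher, and without both C replicates 1 and 2 the 4 became 2. Complement C9, which forms the membrane pore, was at 3.33, 3.16, 3.49 and 3.89 in C and 1.91, 1.51, 1.87 and 1.03 in MCD (-1.89 ± 0.42, adjusted p = 0.00156). Its partners C8a and C8b fell by 1.72 and 1.65. Clotting factor F7 was at 4.86, 5.43, 5.11 and 4.92 in C and 3.76, 3.57, 3.61 and 3.72 in MCD (-1.42 ± 0.24, adjusted p = 8.9e-05). The higher ones included C1qa (1.92 ± 0.50, adjusted p = 0.00538) and C1qb (1.64 ± 0.43, adjusted p = 0.00581), complement subunits made by macrophages. The central component C3 was called lower (-0.55 ± 0.20, adjusted p = 0.0386), lost without any array other than C replicate 2 and MCD replicate 4 (adjusted p = 0.0508 to 0.136). Its sign turned under normexp correction and with the authors' normalized values.

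Of 32 NRF2 target and glutathione genes 8 were higher and 7 lower, where 10.9% and 15.5% of all genes were. Metallothionein Mt1, which binds zinc and copper, was at 4.27, 5.01, 3.13 and 3.84 in C and 7.22, 7.76, 7.49 and 7.86 in MCD, 11.5-fold higher (3.52 ± 0.51, adjusted p = 1.26e-05). The NRF2 targets Srxn1 and Cbr3 rose by 2.09 ± 0.35 and 2.46 ± 0.45. Catalase (Cat) was at 6.46, 5.30, 6.13 and 5.95 in C and 4.62, 4.14, 4.97 and 4.55 in MCD (-1.39 ± 0.35, adjusted p = 0.00414). Aldehyde oxidase Aox1 fell by 1.99. Nqo1 (0.79, adjusted p = 0.148) and the glutathione synthesis gene Gclc (-0.15, adjusted p = 0.777), both standard NRF2 targets, and the glutathione transferase Gstm3 (0.88, adjusted p = 0.175) did not pass the test. Heme oxygenase Hmox1 (1.30 ± 0.43, adjusted p = 0.0256, but -0.17 on its other probe) was lost without C replicate 2, C replicate 3, MCD replicate 1 or MCD replicate 4 (adjusted p = 0.0549 to 0.111).

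Outside the lists, the genes with the largest changes included Stap1, an adaptor of B cell and macrophage signalling that was at least 43.9-fold higher (means of -5.89 and 0.64). The pheromone receptor Vmn2r5 was at least 24.0-fold higher (means of -5.85 and -0.28). Sybu was at least 18.8-fold higher on the probe used (means of -6.54 and -0.63) while its other probe differed by -1.36, so that its direction depends on the probe. The antisense gene Hnf4aos was at 2.52, 3.51, 3.29 and 2.81 in C and -3.84, -2.67, -1.33 and -4.97 in MCD (-6.24 ± 0.73, adjusted p = 7.87e-07). The kidney transcription factor Pax2 was at 5.6, 5.53, 5.98 and 5.83 in C and -0.80, 0.18, -0.61 and 0.26 in MCD (-5.97 ± 1.05, adjusted p = 0.000141). The odorant-binding protein Obp2a, not above background in MCD, was at least 14.1-fold lower (means of -1.03 and -6.95). Rd3 and Lrit2, known from the retina, Sntg2, a syntrophin, and the proteoglycan Cspg5 fell by 5.11, 5.01, 4.98 and 4.43. Cspg5 is not outside the lists: it is among the male-biased genes counted above. All of these groups were separate on all 8 arrays. The size of several changes depends on the processing. Over the 18 alternatives the smallest falls were -1.77 for Rd3, -2.12 for Lrit2, -2.41 for Sntg2, -2.21 for Cspg5 and -1.87 for Obp2a. Those of Hnf4aos and Pax2 were -4.36 and -5.61. The smallest rises of Stap1, Vmn2r5 and Sybu were 2.85, 2.54 and 1.99.

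The same diets could be compared on other arrays: in mice given Fc-GLP-1 before PH (M+Fc-GLP-1 minus C+Fc-GLP-1) and in untreated mice 2 weeks after PH. No array is shared. The titles of the untreated samples after PH repeat those before PH with a mark of the later time. Both may therefore come from the same mice, and the fit did not pair them. Under Fc-GLP-1, 2183 genes were called, 10.4% (5.35% higher and 5.01% lower in M+Fc-GLP-1). Of these, 1043 genes were called in both comparisons, 18.7% of the untreated and 47.8% of the treated calls, 986 of them in the same direction. After PH 2558 genes were called, 12.1%, with 6.05% higher and 6.09% lower in MCD (1659 and 1688 without C replicates 2 and 3 of that time, 1685 without MCD replicate 2). The calls shared with those before PH numbered 1271, 22.8% of the calls before and 49.7% of those after PH, 1244 in the same direction. The sex-biased genes changed in all 3 settings: of the 21 female-biased genes 15 were higher under Fc-GLP-1 and 15 after PH, and of the 25 male-biased genes 16 and 11 were lower. An interaction with Fc-GLP-1, the test given below, passed the threshold in 4 of the 21 female-biased genes, Cyp3a44 and Cux2 among them, and in none of the 25 male-biased genes. Sult1e1 differed by 7.47 and 7.11 there (adjusted p = 2.52e-06 and 5.8e-06) and Cyp4a12a by -4.30 and -6.23 (adjusted p = 0.000824 and 6.48e-06). After PH the diets lay on different slides, so slide and diet cannot be told apart there.

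Whether the diet difference itself changed with Fc-GLP-1 was tested by the interaction, past the threshold for 1296 genes, 6.15%. The interaction is the untreated difference minus the treated one, so it uses the same untreated arrays as the comparison above. The untreated arrays lay on 1 slide and the treated ones on another. The 1296 became 647 and 828 without MCD replicates 1 and 3, 750 without C replicate 1, 845 without C+Fc-GLP-1 replicate 4, 843 and 858 without M+Fc-GLP-1 replicates 1 and 3, and 523 under normexp correction. Lcn2 differed by -0.57 under Fc-GLP-1, an interaction of 5.65 (adjusted p = 0.00944), and the class II genes H2-Aa and H2-Ab1 by -0.61 and -0.68 (interactions of 2.53 and 2.33, adjusted p = 0.0256 and 0.0319). Vsig4 and Clec4f, of Kupffer cells, had interactions of 2.59 and 2.39 (adjusted p = 0.0124 and 0.00777). Of the 24 mitotic genes 6 were called under Fc-GLP-1 and none after PH, but no interaction passed the threshold in any of them. Mki67 differed by 0.65 under Fc-GLP-1 and 0.01 after PH, with an interaction of 2.34 (adjusted p = 0.0774). Asns kept a difference of 2.33 (adjusted p = 0.000660) with an interaction of 2.96 (adjusted p = 0.00794).

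The lipid genes with an interaction included several whose difference was larger in treated mice. Of 34 PPAR alpha genes 18 were higher (5.35% of all genes were) and none lower (5.01%) under Fc-GLP-1, with a median of 1.00 against 0.01 in untreated mice. An interaction passed the threshold in 7, among them Acot1 (-3.85, adjusted p = 0.00605) and Acaa1b (-2.78, adjusted p = 0.00387), which the diet lowered in untreated mice and not in treated ones (0.88 and 0.33, adjusted p = 0.337 and 0.625). Of 26 lipogenic genes 12 were lower and 2 higher under Fc-GLP-1, where 5.01% and 5.35% of all genes were. Fasn differed by -2.94 (adjusted p = 3.9e-05), with an interaction of 2.62 (adjusted p = 0.0161). The droplet protein Plin4 differed by 4.30 (adjusted p = 2.32e-06), with an interaction of -3.22 (adjusted p = 0.0150), and Chka by -2.25 (interaction 1.94, adjusted p = 0.00282). Cidec rose in all 3 settings, by 6.0 under Fc-GLP-1 and 5.53 after PH, and Fgf21 by 3.23 and 7.06.

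**Figure D5:**
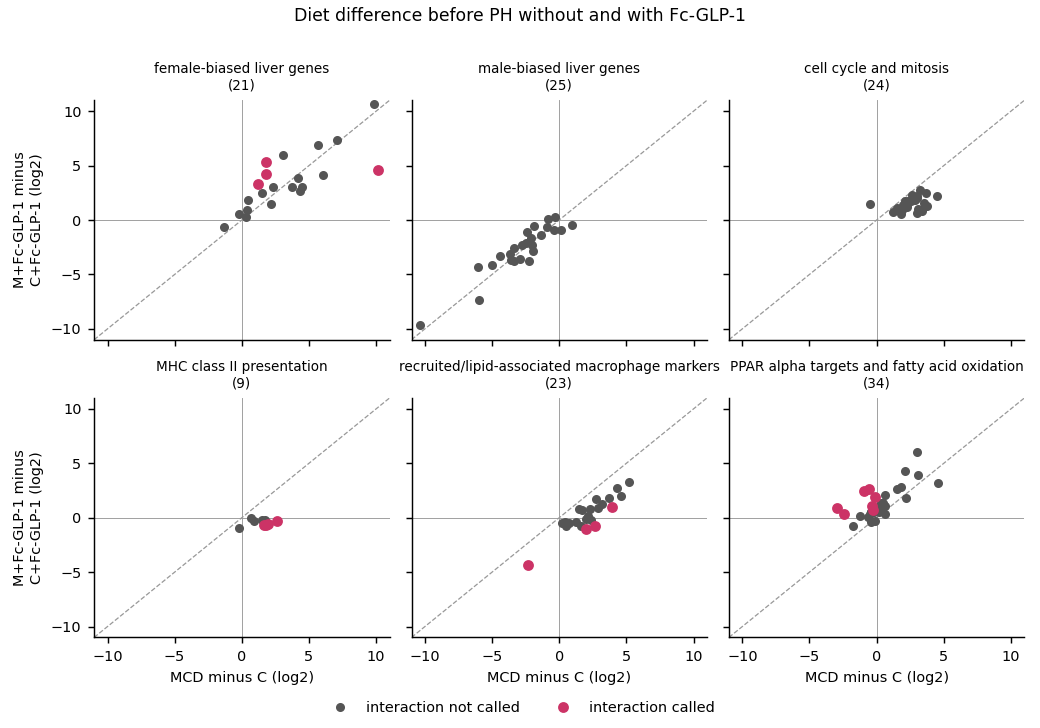
Log2 difference between MCD and C before PH in untreated mice (horizontal) and in mice given Fc-GLP-1 (vertical) for the tested members of 6 lists, with genes whose interaction passed the threshold in pink and the dashed line marking equal differences. Male-biased genes lie around the dashed line and none is pink, 4 of the 21 female-biased genes are pink and lie away from it, class II and macrophage genes lie below it, and PPAR alpha targets lie mostly above it.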

How the data were processed

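RNA from 32 mouse liver samples was hybridised to 1-colour Agilent SurePrint G3 mouse arrays, 4 arrays in each of 8 groups, and each array is labelled as a biological replicate from a separate liver. Samples before and after PH may come from the same mice, which the fit treated as independent. Per the file headers, the authors deposited the intensity values of Agilent Feature Extraction 10.7.3.1, among them a processed signal that the software had background-subtracted, and a value table of log2 values deposited by the authors, normalized with limma (no version given), which served as an alternative. Array data have no counting depth, and the number of arrays limits the precision.

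The log2 processed signal was centred on each array's 75th percentile. Of 59305 non-control spots on 55681 probes, 426 probes flagged as outliers were dropped, and 28932 probes were kept that all 4 arrays of some group, among all 8 groups, showed well above background. A gene dim in most groups was thus tested only through a group where it was brighter, which tilts list counts towards such genes. Probes were named through RefSeq accessions where these matched (27656), otherwise by the file's own name. The probe with the highest mean signal stood for its gene, which gave 21071 genes. No spot of the 8 arrays was saturated.

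A model with 1 mean per group over all 32 arrays (24 residual degrees of freedom) was fitted with limma 3.58.1 in R 4.3.3, so the spread was pooled over all groups, and p-values were adjusted by Benjamini-Hochberg over all genes, with a threshold of 0.05. Errors after ± are standard errors of a difference over 4 and 4 arrays. The fit was tested on simulated data. A difference that did not pass the test is not shown to be absent. An "at least" fold sets the brighter mean against, for each array of the dim group, the lowest signal among probes well above background or the probe's own, whichever was higher.

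The 55 gene lists (1188 genes) and their members were chosen with earlier results of these data known. Genes were named by a rule: the 12 largest rises and falls whose groups did not overlap, which were called with any of the 8 arrays left out and were well above background on all 4 arrays of a group, and in each list its defining members and up to 6 further genes in each direction under the same conditions. Some genes meeting the rule are not reported here. Promoters were the 250 bases before each start in a RefSeq table of GRCm38.p6, searched on both strands.

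Alternatives were normexp correction with quantile normalization, other centrings, the authors' values, keeping dim probes too, averaging the probes of a gene, other sets of arrays in the fit, a replicate block and each array left out. Leaving out C replicates 1 and 2 together was chosen after seeing the data.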

Additional observations from a re-analysis of the deposited data

Results flagged for a closer look

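The diet difference changed with Fc-GLP-1, by the interaction test at an adjusted p under 0.05, in 49 of the 297 genes named above, against 6.15% of all genes. Many of these genes were named for a large untreated difference, and the same untreated arrays enter the interaction, so the 2 shares are not comparable. The values below are the interaction, the untreated minus the treated difference on the log2 scale, so that a positive value means a higher difference in untreated mice. Among immune and inflammatory genes it was C1qa (3.18), C1qb (2.31), Ccl7 (4.33), Cd5l (2.23), Clec4f (2.39), Clec7a (2.92), Ctss (2.86), Fabp5 (1.99), Gbp5 (2.35), H2-Aa (2.53), H2-Ab1 (2.33), Il1b (3.42), Jchain (3.85), Lcn2 (5.65), Lyz2 (2.96), Mx1 (2.27), Pf4 (2.93), S100a8 (4.43), S100a9 (3.31), Saa1 (3.60), Saa2 (3.70), Stap1 (2.69) and Vsig4 (2.59). Il1b, the inflammatory cytokine, differed by 0.81 in untreated and -2.61 in treated mice, and the acute phase proteins Saa1 by 0.11 in untreated and -3.49 in treated mice and Saa2 by 0.31 in untreated and -3.39 in treated mice. For Cd4, of the T and NK list, it was below 0 (-1.89). Among genes of metabolism, secretion and matrix it was Afp (2.49), Apcs (1.59), Asns (2.96), C8a (1.74), Chka (1.94), Col3a1 (2.41), Fasn (2.62), Hk2 (3.06), Mogat2 (3.84), Mthfd2 (2.44) and Sqle (2.06) above 0 and Aass (-1.39), Acaa1b (-2.78), Acot1 (-3.85), Plin4 (-3.22) and Sds (-2.0) below 0. The remaining genes were Arntl (4.11), Cux2 (-3.48), Cyp2c50 (-2.04), Cyp3a44 (5.51), Nr1i3 (-1.91), Obp2a (-4.36), Sybu (3.52), Vmn2r5 (5.34) and Zfp36 (-2.32). Cux2, the female-specific repressor, differed by 1.82 in untreated and 5.29 in treated mice, and Arntl, the clock activator, by -0.47 in untreated and -4.58 in treated mice.

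A single array stood apart from the other 3 of its group, by Dixon's test at 95%, in 45 of 594 groups examined, where chance alone marks about 1 in 20; values are the array's own log2 level. C replicate 1 stood above the rest of its group for Acot2 (-2.51), Cbs (9.08), Ccl3 (-4.57), Krt19 (1.99), Lbp (5.01) and Sds (6.95) and below it for Gclc (4.85), Psat1 (-4.89), Shmt2 (5.06) and Sult1e1 (-5.82). C replicate 2 stood above the rest of its group for C1qa (2.05), Mzb1 (-1.73), Pdgfra (-1.16), Phgdh (-2.13), Sox9 (-0.37), Stap1 (-5.12) and Trem2 (-1.03) and below it for Apoa4 (1.27) and Ttr (7.88). C replicate 3 stood above the rest of its group for Col4a1 (0.83) and below it for Cd36 (-0.35) and Vmn2r5 (-6.37). C replicate 4 stood above the rest of its group for Lrat (0.55). MCD replicate 1 stood above the rest of its group for Reln (-0.83). MCD replicate 2 stood above the rest of its group for Cyp2a4 (9.39), Isg15 (4.94), Krt23 (4.63) and Srxn1 (6.34) and below it for Mzb1 (-1.90), Vcam1 (2.34) and Vsig4 (3.21). MCD replicate 3 stood above the rest of its group for C8a (4.83) and Scd1 (5.70) and below it for Cpt1a (6.12) and Gpat3 (4.00). MCD replicate 4 stood above the rest of its group for Cd63 (5.24), Lgals3 (4.64) and Socs2 (2.71) and below it for Cdc20 (0.55), Cdk1 (-4.03), Fasn (2.17), Krt19 (-1.04), Mki67 (0.20), Pbk (-3.39) and Prc1 (-1.19). MCD replicate 4 was the low array for 5 of the mitotic genes and C replicate 2 the one with the largest share of detected probes.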

How the results depend on the processing

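The count of genes the diet changed before PH, 5574, was 4681 to 6130 under normexp correction, other centrings, the authors' values, no filter, the mean of probes, other sets of arrays and a replicate block, and 4390 to 5227 without any 1 of the 8 arrays; without both C replicates 1 and 2 it was 3372. The share of these calls that were higher, 41.4%, was 76.9% with median centring, 48.5% with the authors' values, 46.6% under normexp correction and 32.9% with no filter. Genes with an interaction, 1296, numbered 2563 with median centring, 668 with the authors' values, 523 under normexp correction, and 647 to 1477 without any 1 array. Genes changed under Fc-GLP-1, 2183, numbered 1417 under normexp correction, 1308 with the authors' values and 1370 in a fit of those groups alone, and genes changed after PH, 2558, numbered 1611 in such a fit and 1659 to 3003 without any 1 array; the cause was not tested. Of 204 named genes that were called, 140 were past the threshold in the same direction under all 18 alternatives. The called genes that turned sign were C3, at 0.32 under normexp correction and 0.34 with the authors' values, and Cyp2e1, at 0.0068 with the authors' values. With median centring, the counts of higher genes also moved to 18 for DNA replication, 8 for T and NK cells and 5 for lipid droplets, and of lower genes to 5 for amino acid breakdown and 4 for NRF2 targets. Under normexp correction the higher counts moved to 4 for chemokines, 3 for neutrophil genes and 2 each for collagens and P450 genes, and the lower ones to 6 for complement and clotting and 5 for P450 genes. Gcgr, not called, was 0.72 and past the threshold under normexp correction. The replicate number was also the row on the slide. Deviations of same-numbered C and MCD arrays from their group means correlated at 0.20, -0.02, 0.04 and -0.01 for replicates 1 to 4. For C replicate 1 the correlations with the other MCD arrays were lower, at -0.11 to -0.045. For replicates 2, 3 and 4 the same-numbered array was not the closest. A replicate block gave 5640, 1265, 2236 and 2582 calls for the diet before PH, the interaction, the diet under Fc-GLP-1 and the diet after PH. Where all arrays of a group were dim for a gene, its value there is only a bound.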

Other observations

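Other gene groups were also measured in the untreated livers. Of 33 genes of amino acid breakdown and the urea cycle 9 were lower and 1 higher, with a median of -0.57. The urea cycle enzyme Otc was at 5.13, 5.73, 6.17 and 6.22 in C and 4.10, 4.23, 5.01 and 4.35 in MCD (-1.39 ± 0.42, adjusted p = 0.0156), and histidase (Hal), serine dehydratase (Sds) and the lysine enzyme Aass fell by 1.40, 1.25 and 1.20. The other Sds probe differed by -0.36. Arginase (Arg1, -0.31, adjusted p = 0.427) did not pass the test, and alanine aminotransferase Gpt2, which the stress response also controls, rose by 1.17 ± 0.32. Of 28 interferon-stimulated genes 8 were higher and 1 lower, with 3 higher without C replicate 1 and 5 without C replicate 4, MCD replicate 2 or MCD replicate 4. The GTPases Gbp5 and Mx1 rose by 2.75 ± 0.37 and 2.16 ± 0.38, while Isg15 (0.88), Ifit1 (-0.09) and Irf7 (-0.71) had adjusted p of 0.0772, 0.917 and 0.294. The other Gbp5 probe differed by 0.66. In mice given Fc-GLP-1 none of the 28 was higher and 7 were lower, where 5.35% and 5.01% of all genes were.

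Of 18 core clock genes and their outputs 6 were higher and 2 lower. The lower ones were the repressors Nr1d1 (-1.32 ± 0.47, adjusted p = 0.0378) and Nfil3 (-1.06 ± 0.39, adjusted p = 0.0435), of which 1 or none was called without any array other than C replicate 3. The higher ones included Per2 at 0.11, -0.02, -1.91 and -1.87 in C and 0.71, 1.19, 0.76 and 1.21 in MCD (1.89 ± 0.47, adjusted p = 0.00408) and the circadian repressor Ciart (3.36 ± 0.60, adjusted p = 0.000172), while Arntl (-0.47, adjusted p = 0.618) and Dbp (1.23, adjusted p = 0.181) did not pass; the hour at which livers were taken is not given in the labels. Of 19 immediate early genes 7 were higher and 5 lower: Myc, the growth regulator, rose by 1.89 ± 0.47 and Klf6 by 2.39 ± 0.56, while the phosphatase Dusp1 and the mRNA decay factor Zfp36 fell by 1.64 and 2.35. Without both C replicates 1 and 2 the 7 became 4. The transferrin receptor Tfrc, for iron uptake, was at -1.06, -1.12, 0.12 and 0.02 in C and 1.13, 0.56, 1.32 and 0.35 in MCD (1.35 ± 0.33, adjusted p = 0.00340), and the iron hormone Hamp differed by -1.25 ± 0.64 (adjusted p = 0.150). Hexokinase 2 (Hk2), little used by healthy hepatocytes, rose by 2.69 ± 0.48, and the liver activin Inhbe by 1.54 ± 0.32. The platelet chemokine Pf4 rose by 2.13 ± 0.39 and the red cell heme enzyme Alas2 fell by 1.76, while hemoglobin Hba-a1 differed by -0.64 ± 0.42 (adjusted p = 0.268). The receptors Glp1r (-0.89, adjusted p = 0.201) and Gcgr (-0.06, adjusted p = 0.902) did not pass the test. Ribosomal protein genes, with Rplp0 at 0.31 and Rps6 at 0.12, were called higher in 3 of 25, near the 10.9% of all genes. The 3 became 5 without C replicate 2 or C replicate 4, 6 with the authors' values and 9 under normexp correction or with median centring.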
